A study of Mus musculus with 3 samples.

Results

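TM3 is 1 of 11 groups into which the trabecular meshwork (TM) and neighbouring cells of the mouse iridocorneal angle were divided after single-cell RNA sequencing. Its members were taken from the deposited cell labels and matched by barcode to the count matrices of the 3 libraries. TM3 held 596 of 26008 kept cells, of which 185 came from control replicate 1, 285 from control replicate 2 and 126 from Angpt1ΔNC. Unless stated otherwise, values below are given in that order of libraries.

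Limbal and iridocorneal angle tissue was dissected from 6-week-old mice of a mixed strain, crossed for 2 generations to albino ICR mice, and dissociated with enzymes for droplet capture. Control mice carried floxed Angpt1 alleles (Angpt1 flox/flox) without Cre. Angpt1ΔNC mice carried the same floxed alleles with Wnt1-Cre, which recombines in cells of the neural crest lineage and leaves vascular endothelium and epithelium unrecombined. Each library pooled the tissue of 2 to 3 mice (4 to 6 eyes), stated to be of both sexes. The controls are separate pools, but there was 1 Angpt1ΔNC pool, so every difference between genotypes below is also a difference between that pool and the rest.

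The TM is a sieve of matrix-covered beams through which aqueous humor leaves the eye towards Schlemm's canal. Its cells make and turn over that matrix, contract, and release signals to the canal endothelium, among them the TIE2 ligand ANGPT1. ANGPT2, a related ligand of the same receptor, acts as a weaker or antagonistic partner, depending on context. Corneal endothelium, which lines the back of the cornea and meets the TM at its anterior edge, derives from the same neural crest lineage.

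TM3 cells were well sampled, with median counts of 7386, 7467 and 7807 unique molecular identifiers (UMIs, each a counted RNA molecule) per cell, and 1419562, 2163634 and 983312 UMIs in all. Median numbers of detected genes were 2343, 2266 and 2317, and median mitochondrial shares were 2.89%, 3.65% and 4.47%. The mitochondrial share was also highest in the Angpt1ΔNC library in TM2 (3.47%, 4.69% and 5.19%) and TM4 (3.50%, 4.48% and 5.01%). Of all kept cells, 104 shared a barcode with a cell of another library, 2 of them in TM3. The libraries differed in sex composition. Xist, the X-inactivation transcript of female cells, was detected in 0 of 185, 0 of 285 and 89 of 126 TM3 cells (70.6%), and a count of 0, taken as 3 of the total, allows up to 1.62% and 1.05% of control cells with a Xist UMI. The control TM3 cells therefore went against the stated pooling of sexes, and genotype and sex cannot be told apart over all cells. Values for male-typed cells (a Y-linked UMI and no Xist UMI, 144, 223 and 29 cells) are given below for the counts and for the named genes that turn or lose their call.

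TM3 made up 2.04% (95% CI 1.76 to 2.35), 2.81% (2.49 to 3.14) and 1.86% (1.55 to 2.21) of kept cells. These are exact Clopper-Pearson intervals, as are all others here. They and the limits given for a count of 0 (3 counts of the total) cover counting error only. Among TM cells the shares were 6.6% (5.71 to 7.58), 8.57% (7.64 to 9.58) and 6.47% (5.42 to 7.66). The Angpt1ΔNC share lay below both controls on either scale, at 0.768 and 0.853 of the control mean. Its interval overlapped that of control replicate 1, and the controls differed from each other by more than control replicate 1 differed from Angpt1ΔNC. Among TM2 to TM5 alone, the groups most like TM3 and TM3 itself, the shares were 21.8% (19.1 to 24.7), 23.3% (21 to 25.8) and 14.2% (12 to 16.7), a ratio of 0.629. On that scale the controls were close and the Angpt1ΔNC interval lay below both. That ratio also depends on the other groups of the scale, which were larger in Angpt1ΔNC. Of TM cells, TM2 was 11.6%, 15.2% and 16.7%, TM4 10.2%, 9.93% and 16.0%, and TM5 1.93%, 3.13% and 6.47%. With 1 Angpt1ΔNC library there is no test of these differences.

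The 3 genes given as TM3 markers were all present, but none was highest in TM3. Levels are the mean over cells of UMIs per 10,000 UMIs of the cell. Groups are described without a test because they were made from expression in these same cells, although Angpt1 itself was left out of the authors' clustering. Angpt1 stood at 1.54 and 1.16 in the control TM3 cells, which ranked TM3 in place 4 and place 6 of the 11 TM groups. TM6 (2.84 and 2.20) and TM7 (2.55 and 2.16) were higher, as was TM4 (1.83 and 1.44). Nell2, a secreted neural glycoprotein used as a TM marker, stood at 1.39, 0.799 and 0.554, second to TM4 (1.69, 1.22 and 0.879) in all 3 libraries. Svep1, a large extracellular matrix protein of vessel and lymphatic development, stood at 0.823, 0.932 and 0.912 in TM3 and was higher in TM4 (1.11, 1.14 and 1.52). TM2 (0.862, 1.14 and 1.60), TM5 (1.27, 1.58 and 1.03) and TM11 (0.910, 1.24 and 1.98) were also above TM3. For Svep1, TM3 was thus in place 6, 6 and 5 of the 11 TM groups, and the gene did not single out TM3.

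Angpt2 was the angiopoietin that set TM3 apart. Its level was 0.596, 0.684 and 0.639, the highest of the 11 TM groups in each library, followed each time by TM2 at 0.284, 0.391 and 0.375. An Angpt2 UMI was found in 29.7% (95% CI 23.3 to 36.9), 33.3% (27.9 to 39.1) and 34.1% (25.9 to 43.1) of TM3 cells. In limbal and corneal epithelium, which should carry only free RNA for this gene, the share was 0.910%, 0.889% and 0.988% at median depths of 17717, 15168.5 and 15135 UMIs. In the controls, 37 of 185 and 49 of 285 (17.2%) TM3 cells held UMIs of both Angpt1 and Angpt2. TM3 was thus a place where transcripts of both TIE2 ligands were found in the same cells, and Angpt2 levels overlapped between genotypes.

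**Figure D1:**
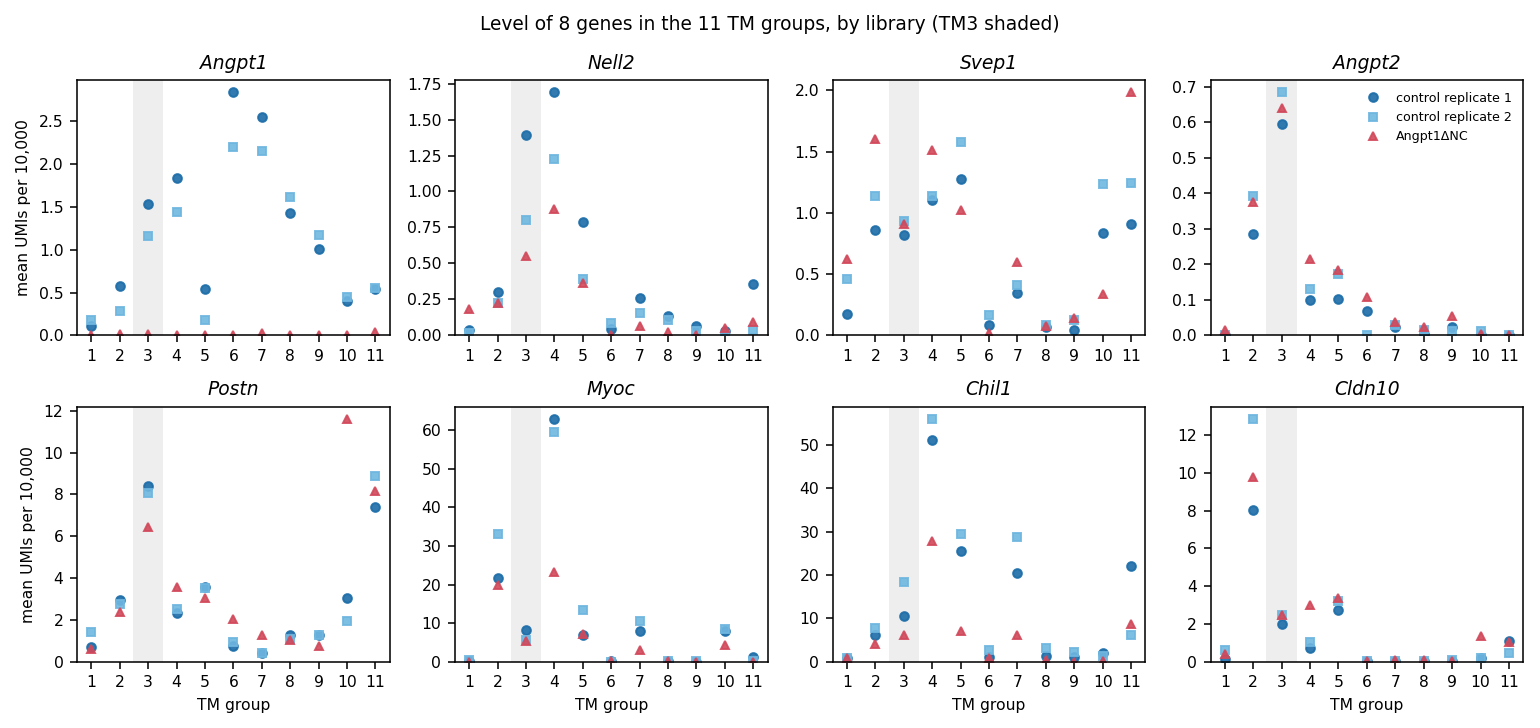
Mean UMIs per 10,000 of 8 genes (vertical axes, linear, starting at 0) in TM groups 1 to 11 (horizontal axes), 1 point per library: dark blue circles control replicate 1, light blue squares control replicate 2, red triangles Angpt1ΔNC. TM3, shaded, has the highest Angpt2 in all 3 libraries (0.596, 0.684 and 0.639), is far below TM4 for Myoc and Chil1, and has almost no Angpt1 in Angpt1ΔNC (0.0192).

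Markers of the filtering meshwork differed in level by gene. Mgp was the highest of the 15 fixed TM markers in TM3, at 87.5, 97.0 and 112. Acta2 (smooth muscle actin) ranked TM3 in place 2, 1 and 2 of the 11 TM groups. The 15 markers summed to 129, 142 and 142 in TM3 and to 221, 221 and 158 in TM4. Myoc, the glaucoma gene myocilin, stood at 8.28, 5.53 and 5.49, against 62.8, 59.4 and 23.2 in TM4 and 21.7, 33.0 and 19.8 in TM2. Chil1, a secreted chitinase-like protein and TM marker, stood at 10.5, 18.5 and 6.11, against 51.3, 56.0 and 27.9 in TM4. Both were several-fold lower in TM3 than in TM4 in every library. Of the 15 fixed TM markers, none was 1.5-fold above TM4 in both controls, 5 were 1.5-fold below, and 8 were 1.5-fold above TM2.

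The 12 fixed corneal endothelial markers summed to 18.8 and 20.8 in control TM3, between TM4 (15.1 and 17.0) and TM2 (31.3 and 40.7). In Angpt1ΔNC the TM3 sum was 20.6, below TM4 (24.3) as well as TM2 (38.6). By gene, 6 were 1.5-fold below TM2 in both controls and 1 was above it. Against TM4, 4 were above and none was below. Cldn10, a tight junction claudin, stood at 1.99, 2.5 and 2.49, between TM2 (8.03, 12.9 and 9.79) and, in the controls, TM4 (0.756 and 1.05). In Angpt1ΔNC, TM4 was above TM3 for Cldn10, at 3.02. TM5 was above TM3 in each library (2.76, 3.23 and 3.36). Atp1b1, a subunit of the sodium pump that keeps the cornea clear, stood at 1.22, 2.01 and 1.16, again between TM2 (2.60 and 3.30) and TM4 (0.295 and 0.559) in the controls. Cdh2, the cadherin of endothelial cell junctions in the cornea, was low at 0.276, 0.367 and 0.210, beside 1.03 and 1.30 in control TM2. UMIs of Myoc and Cldn10 were found in the same cell in 66, 93 and 34 TM3 cells (35.7%, 32.6% and 27.0%). In epithelium, Myoc UMIs were found in 2.33%, 3.56% and 1.21% of cells and Cldn10 UMIs in 3.34%, 7.81% and 10.1%, all below the shares of each gene alone in TM3 (51.4%, 42.5% and 34.1% for Myoc, and 65.9%, 68.1% and 67.5% for Cldn10).

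Among the genes that separated TM2 from TM4 in the controls, TM3 mostly lay between the 2 groups. In the controls, the TM3 profile correlated with that of TM2 at r = 0.939 and with that of TM4 at r = 0.914, followed by TM5 at 0.874 and TM7 at 0.844, down to TM1 at 0.742 (log levels of 2980 genes, all from the same libraries, given as a description). Of 305 genes that differed at least 2-fold between TM2 and TM4 in both controls, 151 were higher in TM2 and 154 in TM4. TM3 lay between the 2 groups in both controls for 238 of them (78.0%), above both for 13 and below both for 15. For the rest, its place differed between the controls. The 305 were chosen for a wide gap, and the same share was not computed for another group, so 78.0% is a description only.

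Few genes left the range of TM2 and TM4 by 1.5-fold in both controls, and they included secreted signals and matrix genes. Smaller departures were not counted over all genes. TM3 was at least 1.5-fold above both TM2 and TM4 in both controls for 27 of 2980 genes (0.906%) and below both for 19 (0.638%). Among the 27 were the chemokine genes Ccl2, Cxcl1, Cxcl5 and Cxcl14 and the cytokine gene Il6. Ccl2, which attracts monocytes, stood at 32.2, 28.1 and 32.9 in TM3, against 16.0 and 13.4 in control TM2 and 13.6 and 12.1 in control TM4. Cxcl1, a neutrophil chemokine, stood at 11.9, 13.5 and 10.4, and its Angpt1ΔNC level was close to the controls. Il6 was more variable, at 2.70, 4.30 and 1.5.

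The same 27 held Postn (periostin, a matricellular protein), Ptn (pleiotrophin, a heparin-binding growth factor), Ccdc80, Lpl (lipoprotein lipase), Ptger4 (a prostaglandin E2 receptor) and Foxc2. Foxc2, a forkhead factor of anterior segment and lymphatic development, stood at 1.23, 1.21 and 1.17, against 0.530 and 0.416 in control TM2 and 0.698 and 0.617 in control TM4. Its 3 TM3 values lay close together. Col6a5, a collagen VI chain, was the gene farthest above its nearest group, at 0.644, 0.897 and 0.143 in TM3 and under 0.05 in TM2 and TM4.

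Below both groups were, among others, Myoc, Gpha2, Thbs4, Cryab, Id1 and the early response genes Fosb and Dusp1. Cryab, the small heat shock protein alpha-B crystallin, stood at 22.9, 18.7 and 22.3 in TM3 and at 65.7 and 64.6 in control TM2. Genes induced by tissue dissociation were low beside TM4. Fos was 0.604, 0.393 and 0.272 in TM3, against 15.1, 11.2 and 20.8 in TM4, and the stress gene Hspa1a was 0.350, 0.216 and 0.121, against 8.12, 5.65 and 7.53. Of 16 fixed dissociation genes, 11 were 1.5-fold below TM4 and none was above it, whereas 2 were 1.5-fold below TM2. Their summed level was 58.0 and 54.5 in control TM3, 68.9 and 64.8 in control TM2 and 113 and 94.1 in control TM4.

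Most marker lists of other cell types summed to little, with exceptions. The endothelial list summed to 0.403, 0.350 and 0.138, most of it Emcn (0.350, 0.290 and 0.0869), while Cdh5 was at 0 in all libraries and Pecam1 did not exceed 0.0122. Emcn UMIs were found in 12.4%, 11.9% and 6.35% of TM3 cells. The immune list summed to 0.376, 0.576 and 0.427, led by Lyz2 in the controls (0.154 and 0.272) and Cd74 in Angpt1ΔNC (0.181), while Cd3e was at 0 and Ptprc was at 0, 0.022 and 0. The 9 epithelial markers summed to 0.937, 1.11 and 1.04, the pericyte and smooth muscle list to 0.460, 0.518 and 0.443, and the melanocyte list to 0.575, 0.842 and 0.569. The glial list summed to 22.9, 18.7 and 22.3, nearly all of it Cryab, while Sox10 was at 0. The keratocyte list summed to 27.8, 26.1 and 28.9, most of it Lum (lumican, a proteoglycan of corneal stroma and other connective tissue), and in the controls it was also at 35.0 and 32.6 in TM2. The pigment and ciliary epithelium list was lowest in Angpt1ΔNC (0.249, 0.331 and 0.0714) and the Cd34 fibroblast list highest (0.550, 0.742 and 0.886). The part of these small differences in the results below was not tested.

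The 20 genes with the highest TM3 level relative to the other TM cells in the controls included matrix proteins, signaling genes and noncoding RNAs. With 0.1 added to both levels, the ratio in the lower of the 2 controls was 4.67 for Postn, 3.98 for Angpt2, 3.82 for Tmem114, 3.60 for Nov (the matricellular CCN3) and 3.56 for Pik3r1 (the regulatory subunit of PI3 kinase). It was 2.85 for Clu (clusterin, a secreted chaperone) at place 20. Postn stood at 8.42, 8.04 and 6.44 in TM3, and was exceeded by TM11 in control replicate 2 (8.86) and by TM10 (11.6) and TM11 (8.17) in Angpt1ΔNC. Tnmd (tenomodulin, a tendon glycoprotein) stood at 15.7, 14.1 and 4.63, and Acta2 (smooth muscle actin) at 7.41, 7.04 and 4.86. Dlk1 (a Notch-like inhibitor of adipocyte differentiation) stood at 3.53, 3.33 and 0.419. Not all of these genes were particular to TM3, since control TM4 stood at 8.95 and 6.53 for Acta2 and at 3.04 and 3.38 for Dlk1. For background, 241 of 2917 genes (8.26%) were at least 1.5-fold above the other TM cells in both controls and 353 (12.1%) were below.

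**Figure D2:**
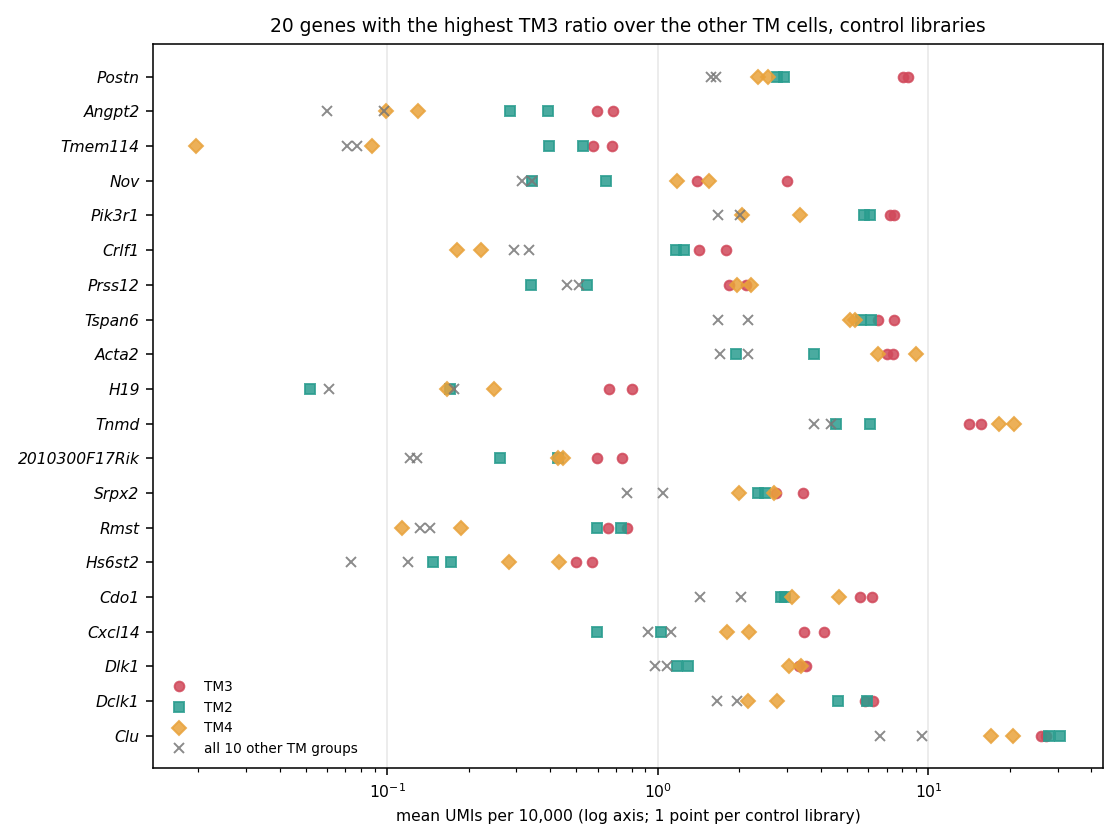
Mean UMIs per 10,000 (horizontal log axis) in the 2 control libraries, 1 point per library, of the 20 genes with the highest ratio of TM3 to the other TM cells. Red circles are TM3, green squares TM2, orange diamonds TM4 and grey crosses all 10 other TM groups together. TM3 is at least 2.85 times the other TM cells throughout, and for Tnmd and Prss12 TM4 is as high as TM3. TM4 is also above TM3 for Acta2 in control replicate 1 and for Dlk1 in control replicate 2.

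Angpt1, the targeted gene (chromosome 15, 42424723 to 42676977, minus strand, GRCm38), was nearly absent from Angpt1ΔNC TM3 cells. Its level was 1.54, 1.16 and 0.0192. UMIs were found in 115 of 185 cells (62.2%, 95% CI 54.7 to 69.2), 134 of 285 cells (47.0%, 41.1 to 53.0) and 2 of 126 cells (1.59%, 0.193 to 5.62). The groups did not overlap. Epithelium, which should lack the transcript, gave 0.303%, 0.494% and 0% (0 of 911 cells, for which 3 of the total allows up to 0.329%), so the Angpt1ΔNC interval in TM3 overlapped what the background allows. After each cell was thinned at random to 2000 UMIs, the shares were 19.5%, 21.8% and 0.820%. At 1000 UMIs they were 12.4%, 9.47% and 0%. The median depths of the controls were already similar before thinning, at 7386 and 7467 UMIs. Summed counts gave a log2 change of -5.93 ± 0.48 (SE), with an adjusted p of 1.78e-31 in edgeR's quasi-likelihood test and 1.71e-05 in DESeq2.

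Angpt2 did not differ detectably between genotypes in TM3, with a log2 change of -0.02 ± 0.25 (edgeR adjusted p = 0.981). Of the 9 tested genes of the angiopoietin and TIE axis, Angpt1 alone passed the test, beside 7.03% of all genes. The median log2 change of the 9 was -0.18. Among 11 tested vascular growth factors, Vegfc, a lymphatic growth factor, was lower at 0.564, 0.480 and 0.220 (log2 change -1.18, edgeR adjusted p = 0.0093, DESeq2 0.849, male-typed cells 0.549). Pdgfb, with 1, 1 and 26 UMIs, was the only other called gene of that list and was higher. A single cell held 73.1% of its Angpt1ΔNC UMIs. Vegfa stood at 4.78, 4.74 and 4.78. Esm1, an endothelial secreted proteoglycan, stood at 4.36, 4.99 and 4.23. Vegfa and Esm1 thus lay within or close to the range of the controls.

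Across the transcriptome, 240 of 8681 tested genes (2.76%) were higher and 370 (4.26%) lower in Angpt1ΔNC TM3 cells. Counts were summed over TM3 cells per library and compared with edgeR's quasi-likelihood test, and a gene was called at a Benjamini-Hochberg adjusted p under 0.05. Because the spread came from the 2 controls (1 residual degree of freedom), the single Angpt1ΔNC library was taken to vary as they do. Of the calls, 139 higher and 251 lower passed a log2 change of 1. DESeq2 called 22 higher and 41 lower genes, all of them among those called by edgeR, and 57 higher and 105 lower calls were also made in male-typed cells alone. The median log2 change of all tested genes was -0.01.

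**Figure D3:**
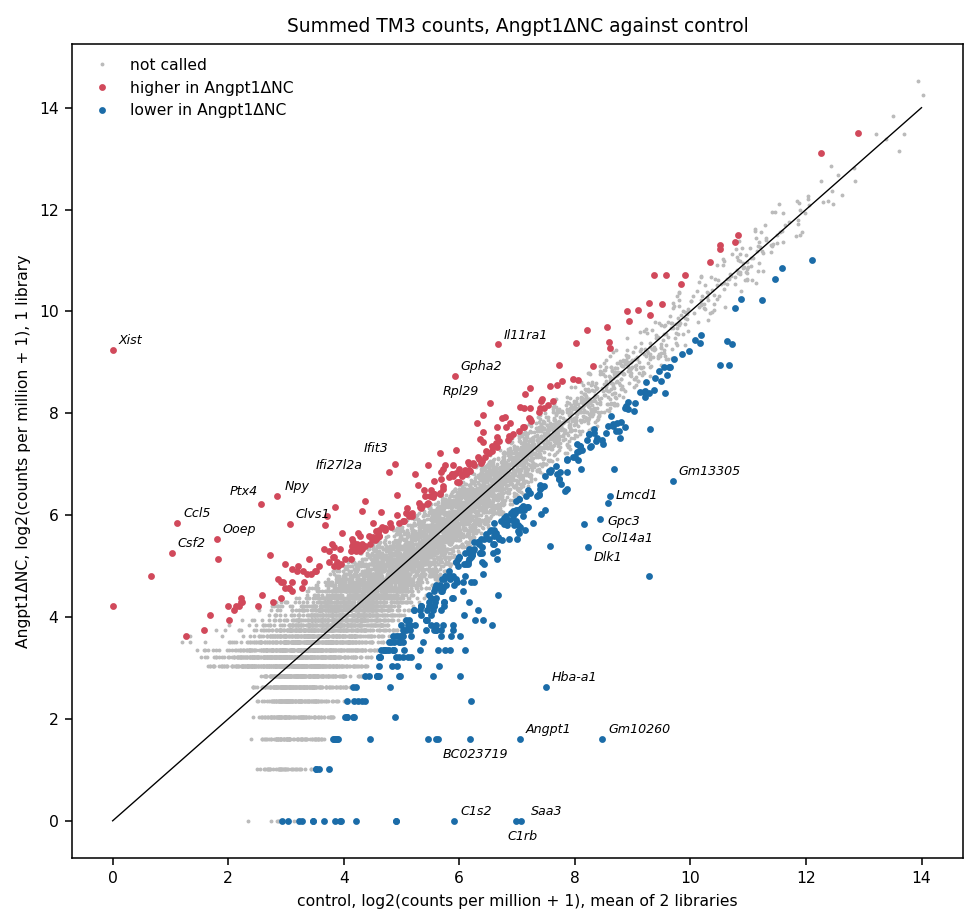
Summed TM3 counts as log2(CPM + 1), where CPM is counts scaled to a common total, the mean of the 2 control libraries on the horizontal axis and the Angpt1ΔNC library on the vertical axis, 1 point per tested gene. Red points (240) are genes called higher and blue points (370) genes called lower in Angpt1ΔNC, and the 24 named genes are labelled; Angpt1 lies far below the line of equality and Xist far above it.

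The named lower genes included matrix and growth factor binding genes. Dlk1 stood at 3.53, 3.33 and 0.419 and was detected in 41.6%, 46.3% and 15.1% of cells, with a log2 change of -2.88 ± 0.27 (edgeR adjusted p = 1.17e-23, DESeq2 3.90e-11). Gpc3, a cell surface proteoglycan that binds growth factors, stood at 3.57, 3.88 and 0.775 and was detected in 77.8%, 79.3% and 31.7% of cells (log2 change -2.52 ± 0.26, edgeR adjusted p = 6.64e-20). Col14a1, a collagen of fibril surfaces, stood at 2.67, 2.76 and 0.527 and was detected in 54.1%, 54.4% and 19% of cells (log2 change -2.35 ± 0.26, edgeR adjusted p = 2.30e-17). In each case the controls were close to each other and the Angpt1ΔNC value lay far below both. Lmcd1, a LIM-domain cofactor, stood at 3.85, 3.34 and 0.642 (log2 change -2.35 ± 0.25, edgeR adjusted p = 5.36e-18). DESeq2 also called Gpc3, Col14a1 and Lmcd1.

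The fall of Gpc3 was not particular to TM3, since it stood at 8.22, 8.29 and 1.37 in the other TM cells. Lmcd1 (1.76, 2.07 and 1.13) and Col14a1 (1.72, 1.19 and 1.09) differed less there.

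The named higher genes included secreted and interferon-related genes. Gpha2, an alpha subunit of glycoprotein hormones, stood at 0.507, 0.624 and 4.5 and was detected in 18.4%, 15.4% and 30.2% of cells (log2 change 2.81 ± 0.20, edgeR adjusted p = 2.28e-39, DESeq2 1.93e-13). A single cell held 19% of its Angpt1ΔNC UMIs, and in male-typed cells the change was 1.06 (edgeR adjusted p = 0.0489). Ptx4, a long pentraxin, stood at 0.0349, 0.0492 and 0.718 and was detected in 2.70%, 4.21% and 30.2% of cells (log2 change 3.83, edgeR adjusted p = 7.51e-23). Detection of both genes in Angpt1ΔNC was above either control. Clvs1, a clathrin vesicle protein, stood at 0.0710, 0.0767 and 0.502 (log2 change 2.86, edgeR adjusted p = 7.81e-13).

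Ifit3, an antiviral effector induced by interferon, stood at 0.277, 0.264 and 1.21 (log2 change 2.16, edgeR adjusted p = 1.22e-16), and Ifi27l2a at 0.260, 0.186 and 1.02 (log2 change 2.12, edgeR adjusted p = 1.20e-14). They were detected in 20.6% and 26.2% of Angpt1ΔNC cells. Of the 12 tested genes of the interferon list, 2 (Ifit3 and Bst2) were higher and none lower, with a median of 0.42. Among all genes, 2.76% were called higher and 4.26% lower.

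Several of the 24 named genes rested on few cells or 1 library. Ccl5 and Csf2 each came from a single Angpt1ΔNC cell, 97.5% of the Npy UMIs came from 1 of 3 cells, and Ooep was not called by DESeq2 (adjusted p = 0.387). Saa3 (0.0144, 2.11 and 0) and Hba-a1, an alpha globin (0.0686, 1.85 and 0.0784), were high in control replicate 2 alone. Without that library their log2 changes were -0.88 and -0.44, and neither was called by DESeq2 (adjusted p = 0.956 and 1.00). A single cell held 98.8% of the Hba-a1 UMIs of control replicate 2.

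Other named genes have near-identical copies, so their counts are uncertain. Il11ra1, a receptor chain for interleukin 11, stood at 0.910, 0.998 and 6.08, while its copy Gm13305 stood at 7.93, 8.03 and 0.992. Their sum was 8.84, 9.03 and 7.07, so the opposite calls largely cancelled. In GENCODE M21 transcripts, 31.0% of the 50-base words in the last 500 bases of Il11ra1 were also found in Gm13305. The complement gene C1rb stood at 0.989, 1.38 and 0, which is at least 33.9-fold lower in Angpt1ΔNC at a floor of 3 counts in that library, and C1s2 at 0.658, 0.499 and 0, at least 17.4-fold lower.

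The sums with their copies were 2.22, 2.43 and 1.93 for C1ra and C1rb and 2.03, 1.39 and 1.96 for C1s1 and C1s2, so the pairs overlapped or nearly overlapped between genotypes. Among the remaining named genes, Gm10260, annotated as a retrogene, stood at 3.06, 3.98 and 0.0202. The ribosomal protein gene Rpl29 stood at 0.776, 0.980 and 2.90. BC023719, annotated as an antisense transcript, stood at 0.796, 0.672 and 0.0234. Copies of these 3 genes were not looked for.

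**Figure D4:**
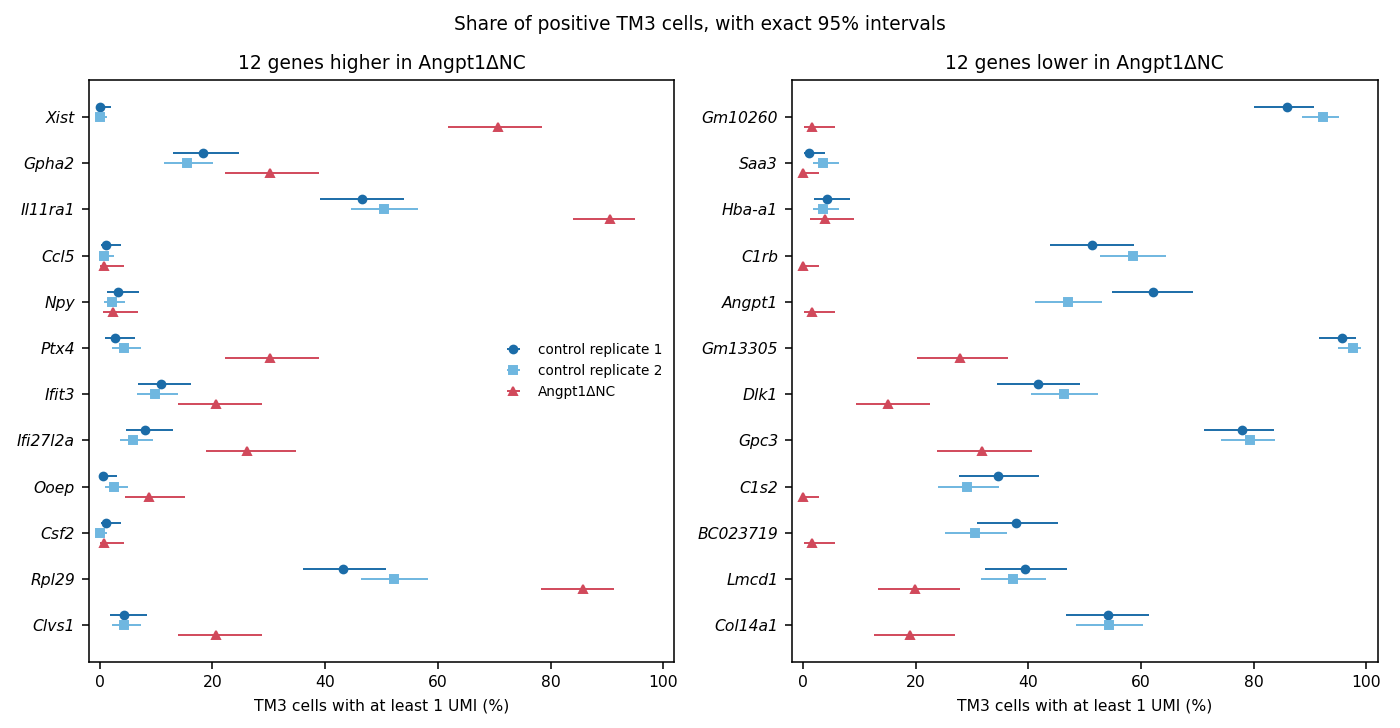
Share of TM3 cells with at least 1 UMI (horizontal axes, in %) for the 12 genes named as higher (left) and the 12 named as lower (right), by library, with exact 95% intervals as bars. Dark blue circles are control replicate 1, light blue squares control replicate 2 and red triangles Angpt1ΔNC; the Angpt1ΔNC intervals for Ptx4 and Clvs1 lie above both controls and those for Dlk1, Gpc3 and Col14a1 below, while for Ccl5, Npy, Csf2 and Hba-a1 the intervals overlap.

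Of the 20 genes with the highest control TM3 level relative to the other TM cells, 9 were lower and 1 was higher in Angpt1ΔNC. Their median log2 change was -0.53 beside -0.01 for all genes, of which 4.26% and 2.76% were called lower and higher. These 20 were chosen by their control levels in the same libraries, so the count is not independent of the contrast. Tnmd had a log2 change of -1.71 ± 0.22 (edgeR adjusted p = 3.34e-12, DESeq2 1.53e-09) and was detected in 52.4%, 51.6% and 22.2% of cells. Tspan6, a tetraspanin, stood at 6.53, 7.46 and 2.93 (log2 change -1.15, edgeR adjusted p = 9.42e-06). Dclk1, a microtubule-associated kinase, stood at 6.22, 5.82 and 3.35 (log2 change -0.89, edgeR adjusted p = 0.00146). Pik3r1, H19, Cxcl14, Nov, 2010300F17Rik and Dlk1 were also lower, and the long noncoding RNA Rmst was higher (log2 change 0.70, edgeR adjusted p = 0.0406). DESeq2 called 4 of the 9 lower genes and male-typed cells alone 8, and neither called Rmst. Postn, Angpt2 and Clu did not pass the test.

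Collagen chains changed in both directions, with 5 of 18 tested chains higher, 3 lower and a median log2 change of 0.27. Beside them, 2.76% of all genes were called higher and 4.26% lower. Col6a3 rose from 1.33 and 1.38 to 3.17 (log2 change 1.24, edgeR adjusted p = 1.22e-07, DESeq2 0.0146), and Col4a2, Col15a1, Col16a1 and Col18a1 were also higher. Besides Col14a1, Col12a1 fell from 10.1 and 8.90 to 5.61 (log2 change -0.75, edgeR adjusted p = 0.00864) and Col6a5 fell from 0.644 and 0.897 to 0.143 (log2 change -2.55, edgeR adjusted p = 8.93e-12). Chains of collagen VI thus moved in opposite directions over all cells. DESeq2 called 1 of the 5 higher chains (Col6a3) and 2 of the 3 lower (Col6a5 and Col14a1). In male-typed cells none of the 5 higher chains was called, with changes of 0.57 for Col6a3 and 0.35 for Col18a1 and a turned sign for Col15a1 (-0.51), and 1 of the 3 lower was called, Col14a1.

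Of 19 tested genes of elastic fibers and matrix crosslinking, 1 was higher (Fbn1, fibrillin 1, log2 change 0.90, edgeR adjusted p = 0.0025) and 3 were lower, with a median of -0.20. Ltbp2, a microfibril protein mutated in congenital glaucoma, stood at 2.71, 2.58 and 1.41 (log2 change -0.73, edgeR adjusted p = 0.0184). Efemp2 and Mfap4 were the other lower genes. For all genes, the called shares were 2.76% higher and 4.26% lower. DESeq2 called none of the 4, and male-typed cells gave Fbn1 and Efemp2.

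Matricellular genes were lower where they were called, with 0 higher and 3 lower of 16 tested and a median of -0.11. The shares for all tested genes were 2.76% higher and 4.26% lower. Cyr61 (CCN1), a target of YAP signaling, stood at 3.93, 3.71 and 1.12 (log2 change -1.79, edgeR adjusted p = 1.25e-11, DESeq2 3.64e-06). Ctgf (CCN2) stood at 10.8, 11.7 and 7.37 (log2 change -0.64, edgeR adjusted p = 0.0346) and Nov (CCN3) at 2.99, 1.39 and 1.09 (log2 change -1.34, edgeR adjusted p = 1.13e-06). All 3 belong to the CCN family, but DESeq2 called only Cyr61 (Ctgf 0.349, Nov 1.00). In male-typed cells the change of Ctgf was 0.075, so its direction was not kept there. Nov varied between the controls, and without control replicate 1 its log2 change was -0.77.

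Of 18 tested proteases and inhibitors, 2 were higher and 1 was lower, beside 2.76% and 4.26% of all genes. Mmp3 (stromelysin 1, which cleaves proteoglycans and collagens) stood at 6.65, 7.68 and 16.4 (log2 change 1.13, edgeR adjusted p = 7.27e-07, DESeq2 5.51e-04). In male-typed cells its change was -2.18 (edgeR adjusted p = 3.63e-07), so the direction was reversed there. Plau, a plasminogen activator, was likewise higher over all cells and reversed in male-typed cells. Serpine2, an inhibitor of serine proteases, stood at 45.0, 45.5 and 21.4 and fell by 1.09 on the log2 scale (edgeR adjusted p = 2.81e-05, DESeq2 4.74e-04), and was detected in at least 98.9% of cells of every library.

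Called genes of the TGF-β, BMP and Wnt antagonist lists were lower. The counts in this paragraph stand beside 2.76% of all genes called higher and 4.26% called lower. Of 16 tested genes of the TGF-β and BMP list, 3 were lower and none higher, with a median of -0.35. Fst (follistatin, which traps activins) stood at 5.07, 7.36 and 2.27 (log2 change -1.61, edgeR adjusted p = 2.49e-10, DESeq2 5.75e-05). Bambi, a decoy receptor, and Gdnf, a neurotrophic factor of the same superfamily, were the others. Of 8 tested secreted Wnt antagonists, 2 were lower and none higher, with a median of -0.37. Sfrp1 stood at 2.63, 2.00 and 1.17 (log2 change -1.01, edgeR adjusted p = 4.72e-04), and Sostdc1 was the other. Of the 5 lower genes of both lists, DESeq2 called Fst alone and male-typed cells gave Fst and Sfrp1. Of 11 tested genes of the insulin-like growth factor axis, 4 were lower (Igf1, Igf2, Igfbp3 and the noncoding H19) and 1 was higher (Igfbp6), with a median of -0.35. DESeq2 called none of these 5. In male-typed cells Igfbp3 and H19 were called and the sign of Igfbp6 turned (-0.10).

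The inflammatory list was mixed, with 4 of 19 tested genes higher, 3 lower and a median of -0.12. All genes together gave 2.76% higher and 4.26% lower. Lif, a cytokine of the interleukin 6 family, stood at 1.97, 2.92 and 6.26 (log2 change 1.36, edgeR adjusted p = 1.26e-09, DESeq2 0.374), and in male-typed cells its change was 0.52 (edgeR adjusted p = 0.316). C1s1 and C1ra, genes of the complement system, were also higher and have the near-identical copies described above. Il6, Cxcl14 and Icam1 were lower. DESeq2 called no gene of the list, and male-typed cells gave 2 of the 4 higher and 2 of the 3 lower. Ccl2 and Cxcl1, the most abundant chemokines of TM3, were not called.

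Of the 16 dissociation stress genes, 4 were lower (Atf3, Nr4a1, Hspa1a and Socs3) and none was higher, with a median of -0.51. The background over all genes was 4.26% lower and 2.76% higher. Their summed level was 58.0, 54.5 and 44.2. None of the 4 was called by DESeq2 or in male-typed cells. The part of dissociation in the other results was not tested.

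Among 14 tested TM markers, Pdgfrb was higher (0.657, 0.908 and 1.67, log2 change 1.12, edgeR adjusted p = 2.02e-05, DESeq2 0.210, male-typed cells 0.0943) and 4 were lower, with a median of -0.16. The 4 were Angpt1, Nell2 (log2 change -0.86, edgeR adjusted p = 0.0127, DESeq2 0.860), Chil1 (-1.22) and Chad. The controls differed from each other by more than 1.5 times in Nell2 and Chil1, and without control replicate 2 the change of Chil1 was -0.62. Myoc did not pass the test (log2 change -0.31, edgeR adjusted p = 0.458). Of 12 tested corneal endothelial markers, the water channel Aqp1 was higher (1.89, 1.91 and 3.68, log2 change 0.96, edgeR adjusted p = 1.29e-04, DESeq2 0.0967) and none was lower. The 4 lower TM markers and Aqp1 were also called in male-typed cells. Counts for both lists stand beside 2.76% of all genes called higher and 4.26% called lower over all cells.

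Of the remaining lists, the endoplasmic reticulum list had 1 gene higher and 2 lower of 18 tested. The anterior segment transcription factors had 1 (Sox9) higher of 9, the contractile genes 1 (Tpm1) lower of 7, and the small leucine-rich proteoglycans 1 (Chad) lower of 10. Of 22 tested genes at glaucoma risk loci 1 was lower, Vegfc, and of 10 genes of monogenic glaucoma 2 were lower, Angpt1 and Ltbp2. These shares stand beside 7.03% of all genes called in either direction. Of these calls, DESeq2 and male-typed cells kept Angpt1, and male-typed cells also kept Chad. Keratocyte markers had 1 gene higher (Aldh3a1) and 1 lower (Ptgds) of 6, and Cd34 fibroblast markers had 1 higher (Clec3b) of 5.

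Uveal stroma markers had 1 higher (Pdgfrb) of 4. Of 5 sex-linked genes, Xist was higher and 2 Y-linked genes were lower, Ddx3y (1.20, 1.43 and 0.626) and Eif2s3y (0.575, 0.579 and 0.104), as the share of male-typed cells was. No tested marker of epithelium, immune cells, melanocytes, glia or pericytes was called, and of the single tested markers of endothelium and of pigment and ciliary epithelium, Emcn and Ttr were lower. Ttr, which carries thyroid hormone and is abundant in pigment epithelium, stood at 0.167, 0.235 and 0.0204.

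The last comparison asked which changes in TM3 differed from those of the 10 other TM groups. An interaction term in edgeR, with library as a block, found 40 of 10516 genes (0.38%) with a higher and 34 (0.323%) with a lower change in TM3. The makeup of the other TM cells was itself different in Angpt1ΔNC. TM7 and TM8 together were 44.9%, 40.6% and 16.9% of TM cells, TM9 was 7.28%, 8.97% and 16.8%, and TM5 was 1.93%, 3.13% and 6.47%. Against TM2 and TM4 alone, 19 of the 40 and 19 of the 34 were also called.

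Gpha2 had the interaction with the smallest p. Its level was 0.507, 0.624 and 4.5 in TM3 and 1.61, 1.45 and 0.943 in the other TM cells (interaction 3.81 ± 0.22 on the log2 scale, edgeR adjusted p = 1.88e-04). The values moved in opposite directions in the 2 cell sets. Cyp1b1, an enzyme mutated in congenital glaucoma, stood at 1.43, 1.16 and 1.80 in TM3 and 2.42, 2.5 and 0.808 elsewhere (interaction 1.70, edgeR adjusted p = 0.0110). Igfbp4 stood at 11.4, 8.35 and 8.45 in TM3 and 37.0, 29.9 and 13.2 elsewhere (interaction 0.99, edgeR adjusted p = 0.00835).

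Igfbp5 and Igfbp7, 2 further insulin-like growth factor binding proteins, had interactions of 0.86 and 0.75. Neither was called against TM2 and TM4 alone. For the 3 binding proteins the TM3 levels of Angpt1ΔNC were within or close to the controls, and the other TM cells were below both controls.

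Among genes with a lower change in TM3, Ptn stood at 8.16, 7.83 and 5.78 in TM3 and at 4.54, 5.74 and 16.2 elsewhere (interaction -2.20, edgeR adjusted p = 0.00101). Dlk1 stood at 0.978, 1.08 and 0.666 in the other TM cells, below both controls in Angpt1ΔNC there too, and its change was larger in TM3 (interaction -2.19, edgeR adjusted p = 0.00525). Cyr61 fell in TM3 and stood at 2.73, 2.99 and 2.74 elsewhere (interaction -1.62, edgeR adjusted p = 0.00525). Postn stood at 8.42, 8.04 and 6.44 in TM3 and at 1.57, 1.64 and 3.11 elsewhere (interaction -1.31, edgeR adjusted p = 0.00548). The higher levels of Ptn and Postn elsewhere were those of the other groups pooled. In TM2 alone both genes were lower in Angpt1ΔNC than in both controls, as in TM3, while in TM4 alone both were higher. Gm13305 had an interaction of -1.45. Gja4, a gap junction connexin, had an interaction of -1.73, but against TM2 and TM4 alone its sign was reversed, at 0.64 (edgeR adjusted p = 0.209).

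**Figure D5:**
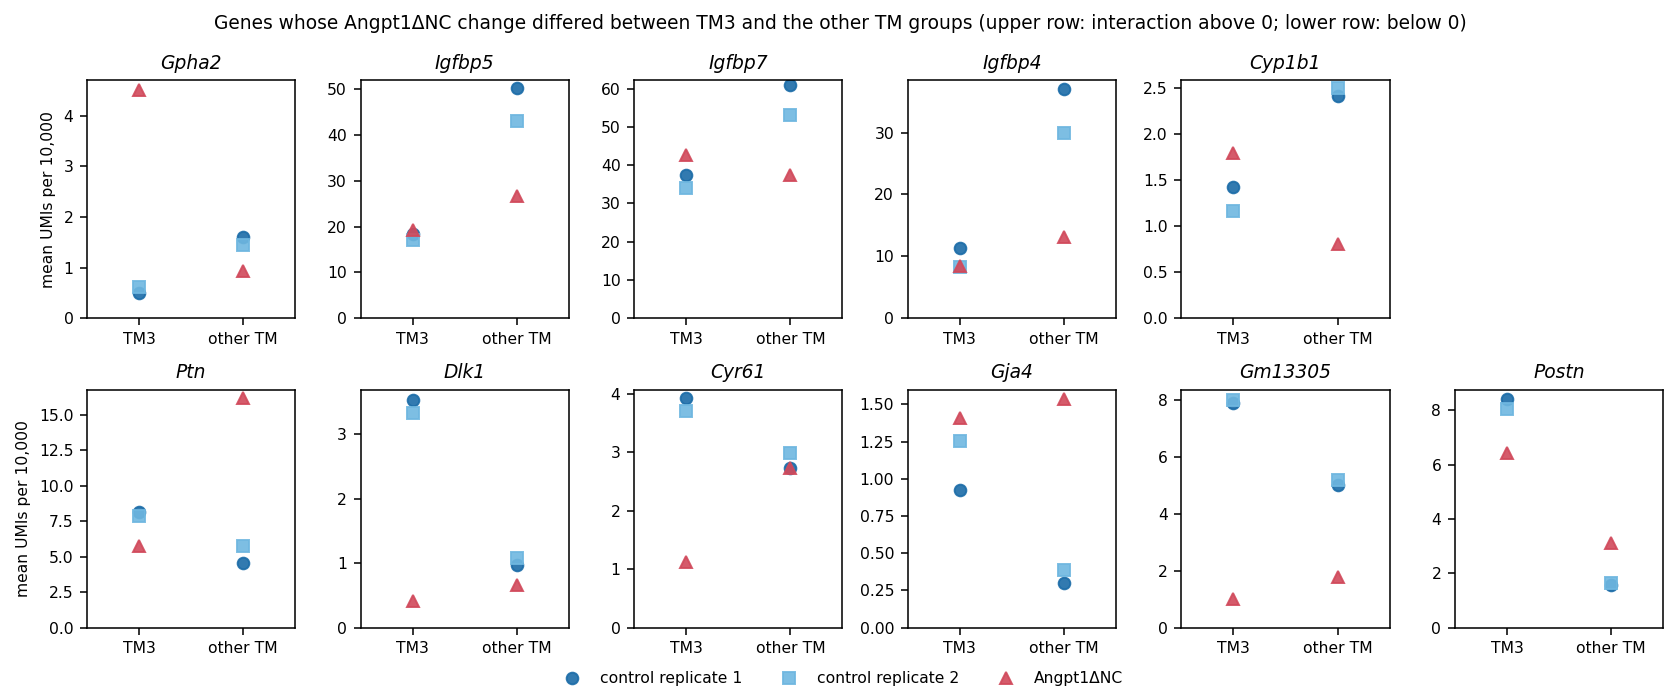
Mean UMIs per 10,000 (vertical axes, linear, starting at 0) in TM3 and in the 10 other TM groups together, by library, for 11 genes named for a different change between the 2 cell sets; circles and squares are control replicates 1 and 2 and triangles Angpt1ΔNC. Gpha2 rises in TM3 (0.507, 0.624 and 4.5) and is lower than both controls elsewhere, and Ptn is lower in TM3 and higher elsewhere.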

How the data were processed

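Droplet single-cell RNA libraries (10x Genomics Chromium) came from 3 pools. The authors deposited UMI counts per gene and cell, aligned to mm10. The submitters' processing notes name Cell Ranger 2.1.1 and Seurat 3.1.3, while the matrix header gives 3.0.2. They also filtered cells on genes, UMIs and mitochondrial share, removed doublets with scDblFinder and clustered integrated data without Angpt1 and sex genes, so no doublet caller was run here. From the deposited cell tables only barcodes and 35 group labels were used, not their integrated log values. These tables and the matrices gave all values.

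UMI counts of TM3 cells were summed per library and tested in R 4.3.3 with edgeR 4.0.16 (quasi-likelihood F-test, TMM, filterByExpr, Benjamini-Hochberg). The prior degrees of freedom were infinite, so no gene kept a spread of its own and p-values for variable genes are too small. Each SE is the size of the log2 change over the square root of the F statistic, so it shares that limit. It can be too small where 1 genotype has few UMIs, as for Angpt1 (2 in Angpt1ΔNC). Scripts were tested on simulated data. The 12 higher and 12 lower genes with the smallest adjusted p past a log2 change of 1 and outside both controls were named, with list genes that passed, the 20 genes of highest TM3 ratio (detected in at least 25% of TM3 cells) and 6 interactions per direction, of which 1 is not reported here. The members and the 31 gene lists were chosen with earlier results of these data known. Gene names are those of the files, and positions are from GENCODE M21. Of 341 list genes, 340 were found and 280 tested. DESeq2 1.42.0, other filters and scalings, equal cell numbers, thinned counts, male-typed cells and leaving out a control were alternatives.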

Additional observations from a re-analysis of the deposited data

Results flagged for a closer look

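Of the genes called by the interaction term, 11 named ones are given here. In them the change from control to Angpt1ΔNC in TM3 differed from that in the other TM groups. The TM3 change was the higher one for Gpha2 (log2 interaction 3.81), Cyp1b1 (1.70), Igfbp4 (0.99), Igfbp5 (0.86) and Igfbp7 (0.75). It was the lower one for Ptn (-2.20), Dlk1 (-2.19), Gja4 (-1.73), Cyr61 (-1.62), Gm13305 (-1.45) and Postn (-1.31). No group held the 4 samples needed to look for a sample apart from its group.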

How the results depend on the processing

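Against 240 higher and 370 lower genes, DESeq2 gave 22 and 41, a filter of 30 counts 40 and 73, male-typed cells 82 and 145, equal cell numbers 124 and 207, and cells thinned to 2000 UMIs 65 and 129. DESeq2's size factors, no filter and 2 settings chosen after seeing the data (a robust prior and each gene without its top cell) kept both counts within 1.5 times. For the 40 and 34 interactions, no filter gave 141 and 197, male-typed cells 94 and 117, and equal UMIs per TM group (added after seeing the data) 60 lower. The cause of these shifts was not tested. In male-typed cells, the sign turned for Npy (-0.33), Ddx3y (0.41), Kdm5d (0.99), Uty (0.70), Clec3b (-6.46), Col15a1 (-0.51), Ctgf (0.075), Mmp3 (-2.18), Plau (-2.43), Igfbp6 (-0.10) and Hspa1a (0.26). With TM2 and TM4 as comparator, Gja4 turned to 0.64. Of 84 named genes, not all had a result in each setting. With DESeq2, 26 kept their call and 52 lost it. In male-typed cells 38 kept their result, 30 lost their call with the same sign and 11 turned sign, as listed above. Without a control, the ratio of the TM3 share was 0.663 to 0.913, and in male-typed cells 0.548. Angpt1 was found in 19.5%, 21.8% and 0.82% of cells at 2000 UMIs, 12.4%, 9.47% and 0% at 1000 UMIs, and 26.5%, 22.1% and 0% at 2 or more UMIs. Without control replicate 2, the fold change moved by over 1.5 times for Nr4a1 (log2 -0.39), Clec3b (2.09), Col18a1 (1.46), Igf2 (-1.85), Ttr (-2.30), Npy (2.98), Csf2 (3.38) and Gm10260 (-6.33), and without control replicate 1 for Ooep (3.06). It moved as far without either control for Angpt1 (-5.15 without control replicate 1 and -5.30 without control replicate 2), Ccl5, Pdgfb, Xist, C1rb, C1s2 and BC023719, each with few counts in 1 genotype. No paired analysis was possible, because there was 1 Angpt1ΔNC pool and the sample labels link it to no control pool. Depth limits the 13 higher and 25 lower genes found in under 10% of cells of every library.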
